A study of Homo sapiens with 6 samples.

Results

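The RAB genes encode the Rab proteins, the largest branch of the Ras-related small GTPases. They were examined in A549 cells, an established human lung adenocarcinoma line, after siRNA knock-down of KMT9α, the catalytic subunit of a histone H4 methyltransferase encoded by N6AMT1. Members were all gene symbols made of RAB, a number and at most 1 further letter, and the transcript with the most reads over the 6 samples stood for its gene. The rule used names only and found 60 of the 23180 gene symbols, with 103 listed transcripts. RNA-Seq had been done on 3 samples transfected with siControl, a control siRNA, and on 3 transfected with siKMT9α#1, all from cells at passage 11 without a genetic change and, by the methods of the study, harvested 3 days after transfection. The labels name the siRNA target without the number of the siRNA. Both groups are the same line, and the knock-down rests on 1 siRNA sequence, so an effect of KMT9α loss and any other effect of that sequence cannot be told apart. The samples are labelled as biological replicates.

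A Rab protein cycles between an active, GTP-bound form on a membrane and an inactive, GDP-bound form in the cytosol. Guanine nucleotide exchange factors (GEFs) switch it on, GTPase-activating proteins (GAPs) switch it off, and in its active form it recruits effectors such as tethers and motor adaptors. Each Rab acts at particular membranes, so the set of Rab proteins in a cell marks the identity of its Golgi, endosomes, secretory vesicles and lysosomes.

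Counts on the gene transcripts came to 15551782.5 to 18568637 per siControl sample and 13740100.5 to 19832398.5 per siKMT9α#1 sample. N6AMT1 had 10.2, 10.8 and 11.5 CPM in the siControl samples and 2.87, 3.22 and 3.35 CPM in the siKMT9α#1 samples, so the targeted mRNA was lower in every siKMT9α#1 sample. Among the 6 epithelial markers the keratin genes KRT8, KRT18 and KRT7 were abundant, EPCAM and CDH1 stayed under 10 CPM in every sample, and CDKN2A, known to be deleted in A549, had 0 counts in every sample. The summed epithelial marker level ran from 4402 to 4886 CPM with siControl and from 2943 to 3130 CPM with siKMT9α#1, with 4 markers lower, 1 higher and 1 not called. The 8 immune, endothelial and fibroblast markers summed to 82.2 to 89.5 CPM and 30.1 to 32.0 CPM, nearly all of it from CD68 and COL1A1, and the other 6, PTPRC, CD3E, PECAM1, VWF, COL3A1 and PDGFRB, stayed at or under 0.471 CPM in every sample. The part of these marker differences in the RAB values was not tested, and fewer cells of a kind and less mRNA per cell cannot be told apart in these samples.

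The RAB genes moved in both directions. Genes were assigned to trafficking steps with earlier results of these data known, so the split by step is a description only. Genes for the ER and Golgi were mostly lower with siKMT9α#1, those for transport to the plasma membrane were mostly higher, and those for secretion split between closely related members. Early endosome genes were also mostly called higher. The calls on RAB21 and RAB22A among them were small, at 0.14 and 0.15 on the log2 scale, and were lost when libraries were scaled by their size only. Of the 60 genes, 55 had enough counts to be tested. P-values came from edgeR's quasi-likelihood test and were adjusted over 13877 genes by the Benjamini-Hochberg method. At an adjusted p under 0.05, 21 were higher and 28 lower, and 6 were not called. That is 89.1% of the RAB genes tested, beside 75.6% of all genes tested (37.1% higher and 38.5% lower), so a call by itself sets no gene apart here. Over the RAB genes the log2 fold changes had a median of -0.26, against -0.01 over all genes. When libraries were scaled by their size only, without TMM factors, which moves the median of all genes to -0.12, the RAB genes split into 13 higher and 31 lower. Values of the groups did not overlap for 46 of the 55, beside 77% of all genes. More than 2-fold changes went downward for 9 RAB genes and upward for RAB27B alone (all genes: 10.3% and 10.1%). By the threshold in the methods of the study (p under 1e-08 and an absolute log2 fold change over 0.26), 6 were higher and 6 lower, beside 13.5% and 10.7% of all genes (24.2% in either direction).

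**Figure D1:**
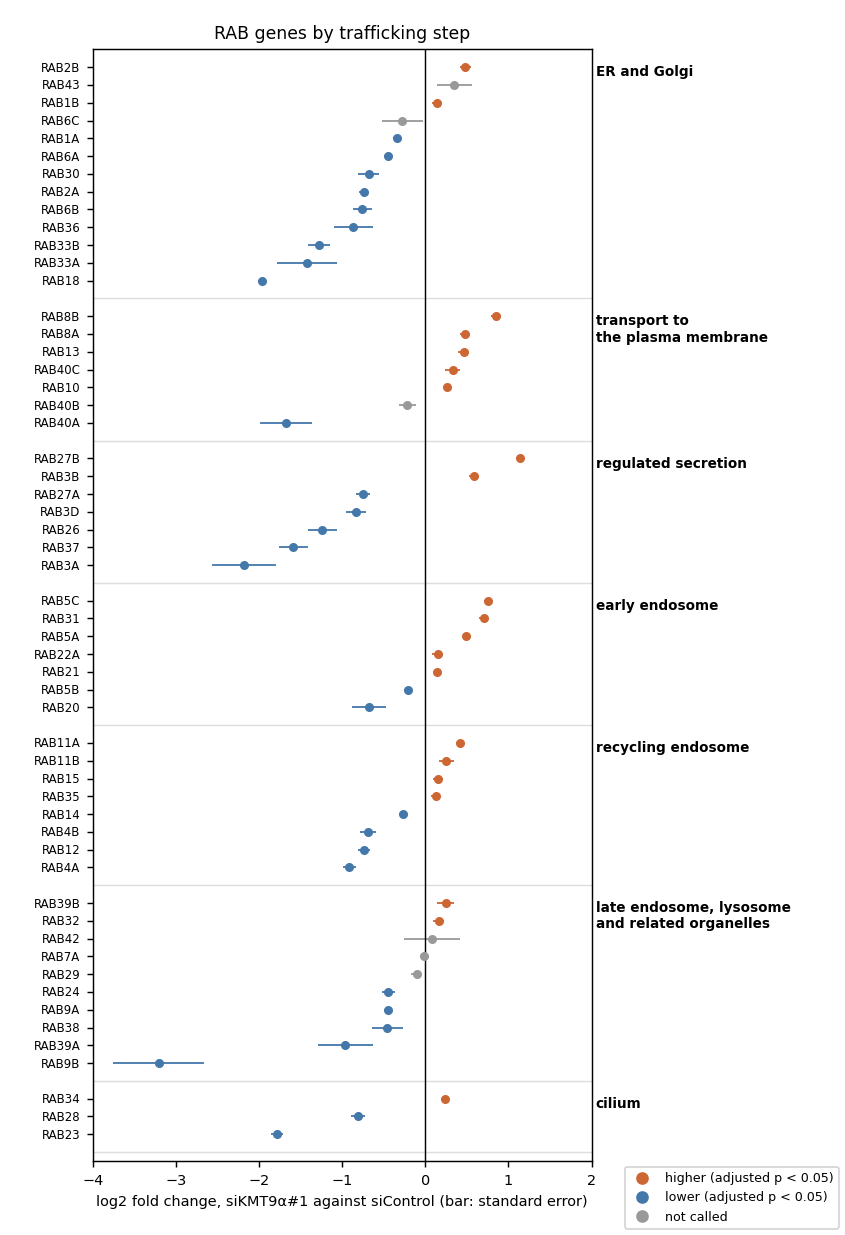
Log2 fold change with siKMT9α#1 against siControl (horizontal axis; bars are standard errors, 3 samples per group) for the 55 RAB genes tested, grouped by trafficking step. Of 13 ER and Golgi genes 9 were lower, and of 7 genes each for early endosomes and for transport to the plasma membrane 5 were higher. Over all genes tested 37.1% were higher and 38.5% lower. The early endosome calls on RAB21 and RAB22A were lost with the library size alone. Steps were assigned with earlier results of these data known.

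At the ER and Golgi, 9 of 13 genes tested were lower, 2 were higher and 2 were not called, with a median log2 fold change of -0.68. The largest difference was in RAB18, which encodes a Rab of the ER and of lipid droplets and is listed as NM_021252 on chromosome 10 of hg19 from 27793249 to 27829099. RAB18 had 114, 113 and 110.1 CPM in the siControl samples and 28.6, 28.1 and 29.5 CPM in the siKMT9α#1 samples. All 3 siKMT9α#1 values lay at about the same level, far under the lowest control. The log2 fold change was -1.97 (standard error 0.05, edgeR adjusted p = 1.65e-16), which left 25.6% of the control level. RAB33B, which encodes a Golgi Rab that binds the autophagy protein ATG16L1 (NM_031296, chromosome 4, 140374961 to 140397069), had 16.5, 18.2 and 13.3 CPM in the siControl samples and 5.33, 6.54 and 7.48 CPM in the siKMT9α#1 samples. The highest siKMT9α#1 sample stayed well under the lowest control, with a log2 fold change of -1.28 (standard error 0.13, edgeR adjusted p = 3.85e-08). RAB36, which encodes a Golgi-associated Rab (NM_004914, chromosome 22, 23487513 to 23506531), was scarce, with 2.07, 1.70 and 2.13 CPM in the siControl samples and 1.40, 1.13 and 0.863 CPM in the siKMT9α#1 samples. Its groups did not overlap but came close, and the log2 fold change was -0.86 (standard error 0.23, edgeR adjusted p = 0.00258).

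The abundant genes of this route changed less. RAB1A, which encodes the Rab that brings ER-derived vesicles to the Golgi (NM_004161, chromosome 2, 65313988 to 65357435), had 676, 666 and 645 CPM in the siControl samples and 528, 528 and 509 CPM in the siKMT9α#1 samples. Every siKMT9α#1 sample was lower, with a log2 fold change of -0.34 (standard error 0.05, edgeR adjusted p = 1.47e-06). RAB6A, which encodes the Rab of retrograde transport through the Golgi (NM_002869, chromosome 11, 73386683 to 73472201), had 296, 290.2 and 279 CPM in the siControl samples and 214, 215 and 203 CPM in the siKMT9α#1 samples. It too was lower in every siKMT9α#1 sample, with a log2 fold change of -0.45 (standard error 0.05, edgeR adjusted p = 5.14e-08). RAB2A, for a Rab of the early secretory pathway, had 224, 227 and 211 CPM in the siControl samples and 126, 128 and 140.0 CPM in the siKMT9α#1 samples. Its groups stood well apart, with a log2 fold change of -0.74 (standard error 0.05, edgeR adjusted p = 1.4e-10). The paralogue RAB2B (NM_032846, chromosome 14, 21927179 to 21945132) went the other way, with 21.2, 21.2 and 22.5 CPM in the siControl samples and 30.04, 30.4 and 30.1 CPM in the siKMT9α#1 samples. The siKMT9α#1 values were tightly grouped above the controls, with a log2 fold change of 0.48 (standard error 0.07, edgeR adjusted p = 2.23e-06). RAB1B (NM_030981, chromosome 11, 66036056 to 66044963), the paralogue of RAB1A, had 104, 111 and 107 CPM in the siControl samples and 127, 124 and 105 CPM in the siKMT9α#1 samples. The siKMT9α#1 replicate 3 lay within the control range, and the call, at a log2 fold change of 0.14 (standard error 0.06, edgeR adjusted p = 0.0496), was lost under 9 of 17 alternatives. Among them were the library size alone, where it was 0.03, and leaving out siControl replicate 1 or 3 or siKMT9α#1 replicate 1 or 2. Over all fits with 1 sample left out, the log2 fold change ran from 0.09 to 0.23.

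The remaining genes of the step were scarcer. RAB6B and RAB30, for further Golgi Rabs, and RAB33A, the paralogue of RAB33B, were lower with log2 fold changes of -0.76, -0.68 and -1.42, and the sample values of RAB33A ran only from 0.219 to 0.910 CPM. RAB43 and RAB6C were not called, at log2 fold changes of 0.35 and -0.28. RAB6C is an intronless near-copy of RAB6A, so its reads may belong to RAB6A and its value is uncertain. Without siControl replicate 2, RAB43 reached 0.57 with an adjusted p of 0.0308 in edgeR's quasi-likelihood test. RAB19 had 0 counts in every sample, and RAB41, at 0.052 to 0.453 CPM, was too scarce to be tested.

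The siRNA itself can act on mRNAs that match its seed, the bases 2 to 8 of the guide strand, as a microRNA does. Taking the strand that the study lists as the sense strand, a match in a 3′ UTR reads ACATTCA on the mRNA strand, the only strand searched. Of the 55 RAB genes tested, 7 held it (12.7%, beside 11.1% of the 12219 genes tested with a 3′ UTR in a GRCh37 annotation). They were RAB18, RAB2A, RAB33B, RAB6B, RAB3D and RAB4A, all 6 lower, and RAB3B, which was higher. Of the 48 RAB genes without a match, 22 were lower, 20 higher and 6 not called. Among all genes with a match, 705 were lower, 385 higher and 269 not called. Among all genes without one, 4030 were lower, 4208 higher and 2622 not called. RAB3B is the only one of the 7 that also holds the corresponding match to the siControl seed, ACGCAAA. That match was found in 2 of the tested RAB genes and in 1.6% of those 12219 genes. The other RAB gene with it, RAB5B, was lower, at a log2 fold change of -0.21. The sites are shown because RAB18, RAB33B, RAB4A and RAB3D are among the 8 largest decreases named by rule. Each line gives the GRCh37 position and 23 bases of the mRNA strand, 5′ to 3′, with the 7 matching bases in capitals, and the site in RAB2A is not shown.
RAB18, chr10:27827211-27827233, plus strand: ttataagtACATTCAattttatg
RAB33B, chr4:140395963-140395985, plus strand: aagtgttcACATTCActaatttt
RAB6B, chr3:133544279-133544301, minus strand: atccttaaACATTCAgtcatgtt
RAB3D, chr19:11433112-11433134, minus strand: ccttcttaACATTCActtttagc
RAB4A, chr1:229440099-229440121, plus strand: atcagtagACATTCActaatata
RAB3B, chr1:52375160-52375182, minus strand: gccctccgACATTCAgaaaacca
All 6 printed sites lie in exonic 3′ UTR. Log2 fold changes had a median of -0.83 over the 7 genes with a match and -0.16 over the 48 without, while over all genes it was -0.23 for the 1359 with a match and 0.01 for the 10860 without. Of the RAB genes more than 2-fold lower, RAB18 and RAB33B held a match. RAB23, RAB37, RAB26 and the scarcer RAB9B, RAB3A, RAB40A and RAB33A held none in the annotated 3′ UTR. The part of the seed in these differences was not tested.

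Transport from the Golgi to the plasma membrane held mostly higher genes, 5 of 7, with 1 lower and 1 not called and a median log2 fold change of 0.33. RAB8B, which encodes a Rab of vesicle delivery to the plasma membrane (NM_016530, chromosome 15, 63481728 to 63559973), had 57.7, 56.5 and 60.6 CPM in the siControl samples and 99.5, 99.6 and 115 CPM in the siKMT9α#1 samples. The lowest siKMT9α#1 sample was far above the highest control, with a log2 fold change of 0.85 (standard error 0.06, edgeR adjusted p = 1.84e-10). Its paralogue RAB8A (NM_005370, chromosome 19, 16222490 to 16244445) had 41.8, 42.6 and 43.3 CPM in the siControl samples and 62.8, 57.04 and 58.6 CPM in the siKMT9α#1 samples. Its groups were also apart, with a smaller log2 fold change of 0.48 (standard error 0.06, edgeR adjusted p = 2.68e-07). RAB10, for a Rab of exocytosis best known for glucose transporter delivery (NM_016131, chromosome 2, 26256729 to 26360323), had 757, 689.7 and 688 CPM in the siControl samples and 842, 843 and 877 CPM in the siKMT9α#1 samples. The rise was modest, with a log2 fold change of 0.26 (standard error 0.05, edgeR adjusted p = 9.97e-05), and the groups did not overlap. RAB13, linked to tight junction transport, rose by 0.46 on the log2 scale, and RAB40C, a Rab that carries a SOCS box and acts in ubiquitin ligases, rose by 0.33. The other members of the SOCS box group did not follow: RAB40A was lower at 1.57, 1.05 and 1.72 CPM in the siControl samples and 0.491, 0.256 and 0.575 CPM in the siKMT9α#1 samples, a log2 fold change of -1.68 on few counts, and RAB40B was not called at -0.22. RAB40B was called lower with the library size alone (-0.32, edgeR adjusted p = 0.00829) and with at least 10 counts in every sample, and was at -0.04 with GC and length offsets.

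In regulated secretion, 2 of 7 genes were higher and 5 lower, with a median of -0.83, and the largest rise of any RAB gene was here. RAB27B, which encodes a Rab that docks secretory and exosome-bearing compartments at the plasma membrane (NM_004163, chromosome 18, 52495708 to 52562747), had 74.9, 68.8 and 73.8 CPM in the siControl samples and 161, 158 and 159.8 CPM in the siKMT9α#1 samples. The siKMT9α#1 samples lay close together at more than 2 times the control values, with a log2 fold change of 1.14 (standard error 0.05, edgeR adjusted p = 9.95e-14). The paralogue RAB27A (NM_183235, chromosome 15, 55495164 to 55582013) had 18.1, 17.01 and 17.1 CPM in the siControl samples and 10.01, 9.98 and 10.9 CPM in the siKMT9α#1 samples. It fell in every siKMT9α#1 sample, with a log2 fold change of -0.75 (standard error 0.09, edgeR adjusted p = 2.1e-07). RAB3B, which encodes a Rab of vesicle exocytosis (NM_002867, chromosome 1, 52373628 to 52456436), had 33.2, 32.2 and 32.9 CPM in the siControl samples and 50.2, 50.97 and 46.8 CPM in the siKMT9α#1 samples. Its groups were apart, with a log2 fold change of 0.59 (standard error 0.06, edgeR adjusted p = 3.41e-08), but correcting each sample for GC content and transcript length, the latter unusually large here, brought it to 0.09 and ended the call. The related RAB3D (NM_004283, chromosome 19, 11432722 to 11450344) had 8.87, 8.71 and 9.10 CPM in the siControl samples and 4.27, 5.30 and 5.31 CPM in the siKMT9α#1 samples. It was lower in every siKMT9α#1 sample, with a log2 fold change of -0.83 (standard error 0.12, edgeR adjusted p = 3.38e-06). RAB3A, best known from synaptic vesicles, was scarce at 1.06, 1.02 and 0.988 CPM in the siControl samples and 0.378, 0.219 and 0.105 CPM in the siKMT9α#1 samples, with a log2 fold change of -2.18.

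RAB37 and RAB26, both for Rabs of secretory granules, were also lower. RAB37 (NM_001006638, chromosome 17, 72733356 to 72743474) had 6.05, 5.43 and 5.95 CPM in the siControl samples and 1.36, 2.41 and 1.99 CPM in the siKMT9α#1 samples. The highest siKMT9α#1 value was under the lowest control by a wide margin, with a log2 fold change of -1.59 (standard error 0.17, edgeR adjusted p = 8.26e-08). RAB26 (NM_014353, chromosome 16, 2198651 to 2204141) had 6.53, 4.79 and 5.38 CPM in the siControl samples and 2.46, 3.00 and 1.86 CPM in the siKMT9α#1 samples. Its controls scattered more, but the groups did not overlap and the log2 fold change was -1.24 (standard error 0.18, edgeR adjusted p = 3.87e-06). RAB3C had 0 counts in every sample.

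**Figure D2:**
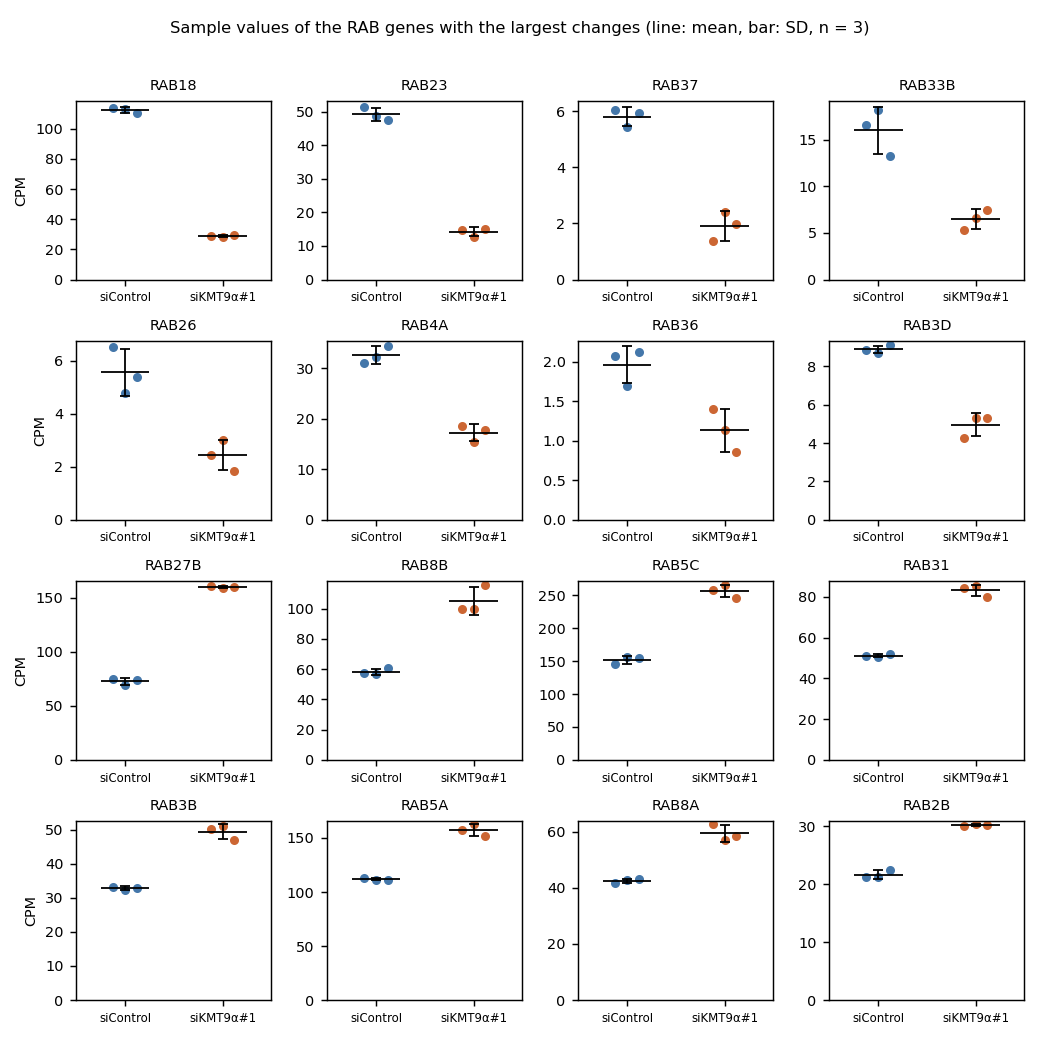
Expression in CPM (vertical axes from 0) of the 8 RAB genes with the largest decreases and the 8 with the largest increases that were named by rule, 1 point per sample, with the mean (line) and SD (bar) of 3 samples per group. In all 16 panels the siControl and siKMT9α#1 points do not overlap, with RAB18 at 25.6% of its control level and RAB27B at more than 2 times its own.

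Early endosome genes were higher in 5 of 7 cases and lower in 2, with a median of 0.15. RAB5 proteins drive the fusion of early endosomes, and their genes did not move together. RAB5C, the most abundant of them per kilobase (NM_201434, chromosome 17, 40276994 to 40307062), had 145, 156 and 155 CPM in the siControl samples and 258, 265 and 246 CPM in the siKMT9α#1 samples. Every siKMT9α#1 sample was far above the controls, with a log2 fold change of 0.75 (standard error 0.05, edgeR adjusted p = 4.99e-11). RAB5A (NM_004162, chromosome 3, 19988572 to 20026667) had 113, 112 and 111 CPM in the siControl samples and 157, 163 and 152 CPM in the siKMT9α#1 samples. It rose too, from very even controls, with a log2 fold change of 0.49 (standard error 0.05, edgeR adjusted p = 1.61e-08). RAB5B went the other way at 155, 159.7 and 154 CPM in the siControl samples and 136, 143 and 127 CPM in the siKMT9α#1 samples. Its groups did not overlap, with a log2 fold change of -0.21 (standard error 0.05, edgeR adjusted p = 0.00119), which was -0.31 with the library size alone and -0.45 with GC and length offsets.

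RAB31, which encodes a Rab of transport between the trans-Golgi network and endosomes (NM_006868, chromosome 18, 9708228 to 9862553), had 51.1, 50.4 and 51.7 CPM in the siControl samples and 84.4, 85.2 and 80.01 CPM in the siKMT9α#1 samples. Its groups stood well apart, with a log2 fold change of 0.70 (standard error 0.05, edgeR adjusted p = 2.93e-10). The related RAB22A and the endocytic RAB21 were called higher by small amounts, at log2 fold changes of 0.15 and 0.14. Neither call held with the library size alone or without siKMT9α#1 replicate 1, and that on RAB22A was lost also without siControl replicate 2 or siKMT9α#1 replicate 2. Leaving out 1 sample gave 0.11 to 0.19 for RAB22A and 0.12 to 0.17 for RAB21, and with GC and length offsets RAB22A turned to -0.17. RAB20 fell by 0.67 on the log2 scale from under 3 CPM, a call lost in DESeq2 and with GC and length offsets (-0.43). RAB17, an epithelial endosomal Rab, stayed under 0.16 CPM and was not tested.

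Recycling endosome genes were evenly split, with 4 higher and 4 lower and a median of -0.07. RAB4A, for a Rab of fast recycling to the cell surface (NM_004578, chromosome 1, 229406879 to 229440518), had 30.98, 32.3 and 34.5 CPM in the siControl samples and 18.6, 15.4 and 17.8 CPM in the siKMT9α#1 samples. The siKMT9α#1 samples were all far lower, with a log2 fold change of -0.92 (standard error 0.08, edgeR adjusted p = 3.01e-09). RAB4B and RAB12, the latter for a Rab of transferrin receptor turnover, fell alongside at -0.69 and -0.74, and RAB14 fell by 0.26. RAB11A, for the Rab of slow recycling, moved upward with 164, 162 and 159 CPM in the siControl samples and 211, 225 and 211 CPM in the siKMT9α#1 samples. Its groups did not overlap and the log2 fold change was 0.42 (standard error 0.05, edgeR adjusted p = 1.43e-07). RAB11B, RAB15 and RAB35 were called higher at 0.25, 0.15 and 0.13. Each of these calls was lost with the library size alone and without at least 1 library. That on RAB11B was lost without siControl replicate 1 or siKMT9α#1 replicate 2, and that on RAB15 without siControl replicate 2 or siKMT9α#1 replicate 3. That on RAB35 was lost without any of siControl replicates 1 and 2 and siKMT9α#1 replicates 1 and 2. Over all fits with 1 sample left out, the log2 fold changes ran from 0.16 to 0.34, 0.13 to 0.19 and 0.08 to 0.18. RAB25, an epithelial recycling Rab, stayed at or under 0.208 CPM and was not tested.

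Late endosomes, lysosomes and related organelles held 2 higher genes, 5 lower and 3 not called, with a median of -0.28. RAB7A, which encodes the main Rab of late endosomes and lysosomes (NM_004637, chromosome 3, 128444979 to 128533641), had 261, 250.4 and 251 CPM in the siControl samples and 263, 251 and 242 CPM in the siKMT9α#1 samples. The groups overlapped, with a log2 fold change of -0.01 (standard error 0.05, edgeR adjusted p = 0.825), though with the library size alone it was -0.12 with an edgeR adjusted p of 0.0295. RAB9A, for the Rab of transport from late endosomes to the trans-Golgi network, had 79.5, 78.3 and 79.7 CPM in the siControl samples and 55.2, 60.2 and 58.4 CPM in the siKMT9α#1 samples. It fell in every siKMT9α#1 sample, with a log2 fold change of -0.45 (standard error 0.05, edgeR adjusted p = 1.98e-07). RAB9B had 36 counts over the controls and 3 over the siKMT9α#1 samples, which is 9.82% of the control level at these depths (95% exact interval for counting error 1.94% to 31.1%).

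RAB24, linked to autophagy, fell by 0.45 on the log2 scale, or by 0.19 with GC and length offsets. RAB32 and RAB38, the paralogues that serve melanosomes and other lysosome-related organelles, were called in opposite directions at 0.16 and -0.46. Both calls were fragile. That on RAB32 was lost with the library size alone and without siControl replicate 1 or siKMT9α#1 replicate 1 or 2. That on RAB38 was lost under 10 of 17 alternatives, including without any 1 sample other than siControl replicate 2. Over all fits with 1 sample left out, RAB32 ran from 0.12 to 0.24 and RAB38 from -0.48 to -0.42. RAB39A and RAB39B also split, at -0.96 and 0.25, and the call on RAB39A was lost without siKMT9α#1 replicate 1 (-0.65). That on RAB39B was lost under 8 of 17 alternatives, among them without siControl replicate 3 or siKMT9α#1 replicate 1 or 3. Its log2 fold change ran from 0.17 to 0.32 over all fits with 1 sample left out. RAB29, a partner of the kinase LRRK2, and RAB42 were not called, at -0.10 and 0.08, although RAB29 was called lower without siKMT9α#1 replicate 2 (from -0.17 to -0.06 over the samples left out), with the library size alone (-0.21) and with GC and length offsets (-0.18).

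The cilium group had 3 genes. RAB23, which encodes a negative regulator of hedgehog signalling (NM_016277, chromosome 6, 57053582 to 57087078), had 51.3, 48.6 and 47.6 CPM in the siControl samples and 14.9, 12.8 and 15.1 CPM in the siKMT9α#1 samples. Its siKMT9α#1 samples lay far under the controls at 29.1% of their level, with a log2 fold change of -1.78 (standard error 0.07, edgeR adjusted p = 4.96e-14). This decrease was second only to RAB18 among RAB genes with a mean of at least 1 CPM over all 6 samples. The scarcer RAB3A and RAB9B, under that mean, fell more, at -2.18 and -3.21. RAB28 fell by 0.81 on the log2 scale, and RAB34, needed for the early steps of cilium formation, rose by 0.24.

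Offsets for GC content and length moved further called genes by over 1.5 times without ending the call. RAB34 went to 0.49, RAB11B to 0.52, RAB1B to 0.36, RAB32 to 0.28, RAB35 and RAB21 to 0.23 each, RAB11A to 0.28, and RAB4B to -0.44, while RAB40C went to 0.50 with the offsets and the replicate number as a block. With the library size alone RAB10 was at 0.16 and RAB34 at 0.13.

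Levels were compared between genes as CPM per kilobase of transcript. RAB1A, RAB10, RAB7A, RAB5C, RAB6A and RAB1B were the 6 highest and together held 49.9% ± 0.74 (SD, n = 3) of the summed RAB level with siControl and 51.9% ± 0.11 (SD, n = 3) with siKMT9α#1. RAB1A led in the controls, at 251.8 ± 6.0 (SD, n = 3) CPM per kilobase against 188.5 ± 10.5 (SD, n = 3) for RAB10. With siKMT9α#1 the order was the reverse, at 198.3 ± 4.2 (SD, n = 3) for RAB1A and 226.3 ± 5.2 (SD, n = 3) for RAB10. RAB5C passed RAB7A, going from 84.4 ± 3.4 to 142.3 ± 5.2 (SD, n = 3) CPM per kilobase while RAB7A was at 114.5 ± 2.7 and 113.6 ± 4.7 (SD, n = 3).

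The sum of all 60 RAB genes hardly differed, at 1560.5 ± 10.7 (SD, n = 3) CPM per kilobase with siControl and 1548.3 ± 29.3 (SD, n = 3) with siKMT9α#1, and the groups overlapped. Its make-up differed. ER and Golgi genes held 33.0%, 33.1% and 32.1% of the sum in the controls and 25.0%, 24.9% and 24.6% in the siKMT9α#1 samples. Early endosome genes held 13.4%, 13.8% and 13.97% and then 19.2%, 19.6% and 18.9%. Genes of transport to the plasma membrane went from 16.9%, 15.8% and 16.1% to 20.2%, 20.0% and 21.4%. The groups did not overlap for the share of any step, so this does not set these steps apart. Mean shares went from 14.3% to 13.4% for recycling endosomes and from 16.5% to 15.7% for late endosomes, lysosomes and related organelles. For the cilium group they went from 4.73% to 4.18%. The share of regulated secretion was 1.69% ± 0.08 and then 2.15% ± 0.03 (SD, n = 3) although 5 of its 7 genes fell, and RAB27B is its most abundant member per kilobase. A share within a sample does not depend on the scaling of the libraries, and with 3 against 3 samples no exact permutation test of a share can go below p = 0.1.

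**Figure D3:**
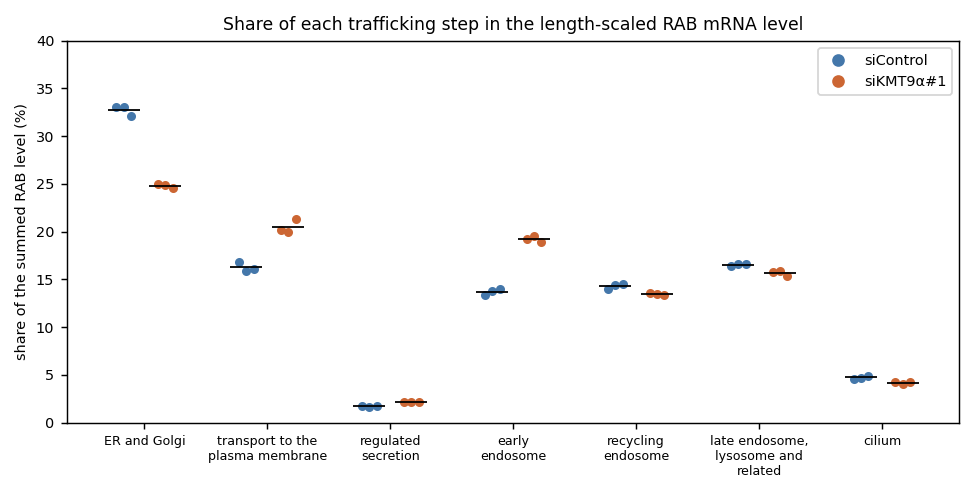
Share of each trafficking step in the summed RAB level (percent of CPM per kilobase over the 60 RAB genes, vertical axis), 1 point per sample with the mean of 3 samples as a line. The ER and Golgi share is near 33% in the siControl samples and near 25% in the siKMT9α#1 samples, and the early endosome share lies at 13.4% to 13.97% and at 18.9% to 19.6%. Steps were assigned with earlier results of these data known.

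The balance of close relatives was read from ratios of length-scaled counts within a sample, without correction for GC content or length effects. Of 20 related pairs 16 did not overlap between the groups, a share near the 77% of single genes whose groups do not overlap, so the count says little about relatives as such. Each of the 16 had a two-sided exact permutation p of 0.1, the smallest that 3 against 3 samples allow, and 0.125 after Benjamini-Hochberg adjustment over the 20 pairs, so none could pass 0.05. RAB27A over RAB27B was 0.491, 0.503 and 0.471 in the siControl samples and 0.127, 0.128 and 0.139 in the siKMT9α#1 samples, a difference of -1.90 on the log2 scale. RAB27A thus made up 32.0% to 33.5% of the length-scaled RAB27 counts in the controls and 11.3% to 12.2% in the siKMT9α#1 samples. RAB2A over RAB2B was 8.08, 8.22 and 7.19 in the siControl samples and 3.23, 3.24 and 3.57 in the siKMT9α#1 samples, a log2 difference of -1.23. RAB1A over RAB1B moved less, from 4.81, 4.42 and 4.46 to 3.08, 3.14 and 3.58, a log2 difference of -0.48. RAB2A and RAB1A remained the more abundant partner in all samples.

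The RAB3 and RAB5 families changed inside. RAB3B over RAB3D went from 1.25, 1.23 and 1.20 to 3.90, 3.20 and 2.93, a log2 difference of 1.44. From near equal amounts, RAB3B thus became the clear majority of the pair. RAB3A over RAB3B went from 0.275, 0.272 and 0.258 to 0.0648, 0.037 and 0.0192, and RAB3A over RAB3D from 0.342, 0.334 and 0.31 to 0.253, 0.118 and 0.0563, both on few RAB3A counts. Without siKMT9α#1 replicate 3, which has the lowest RAB3A value, the log2 difference of the latter fell in size from -1.47 to -0.93. RAB5B over RAB5C went from 0.36, 0.345 and 0.336 to 0.178, 0.183 and 0.174, a log2 difference of -0.96. RAB5A over RAB5B went from 1.54, 1.47 and 1.53 to 2.44, 2.40 and 2.53, and RAB5A over RAB5C from 0.556, 0.509 and 0.514 to 0.435, 0.439 and 0.44. Within the family, then, RAB5C gained on both relatives and RAB5B lost to both.

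The remaining pairs included small shifts and larger ones. RAB22A over RAB31 went from 0.337, 0.312 and 0.337 to 0.222, 0.227 and 0.224. RAB8A over RAB8B went from 1.63, 1.70 and 1.61 to 1.42, 1.29 and 1.14, and RAB8A over RAB10 from 0.0965, 0.108 and 0.11 to 0.13, 0.118 and 0.117. RAB40B over RAB40C went from 1.01, 1.11 and 1.03 to 0.685, 0.638 and 0.827, which carried RAB40B from slightly above its relative to under it. RAB6A over RAB6B went from 44.4, 49.9 and 39.8 to 53.9, 61.7 and 50.1, RAB32 over RAB38 from 28.1, 33.9 and 29.4 to 49.7, 48.4 and 41.8 and RAB39A over RAB39B from 0.279, 0.225 and 0.225 to 0.0419, 0.121 and 0.135. The last of these rests partly on siKMT9α#1 replicate 1, without which its log2 difference was -0.92 in place of -1.45. Ratios overlapped for RAB4A over RAB4B, RAB11A over RAB11B, RAB33A over RAB33B and RAB26 over RAB37, with log2 differences of -0.21, 0.15, -0.13 and 0.43. Single libraries decided these values. Without siControl replicate 3 that of RAB4A over RAB4B was -0.11, and RAB11A over RAB11B was 0.28 without siControl replicate 1 and 0.07 without siControl replicate 2. RAB26 over RAB37 was 0.18 without siKMT9α#1 replicate 1 and 0.66 without siKMT9α#1 replicate 3. RAB33A over RAB33B moved by over 1.5 times or changed sign whichever sample was left out, from -0.57 without siKMT9α#1 replicate 1 to 0.10 without siKMT9α#1 replicate 2.

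**Figure D4:**
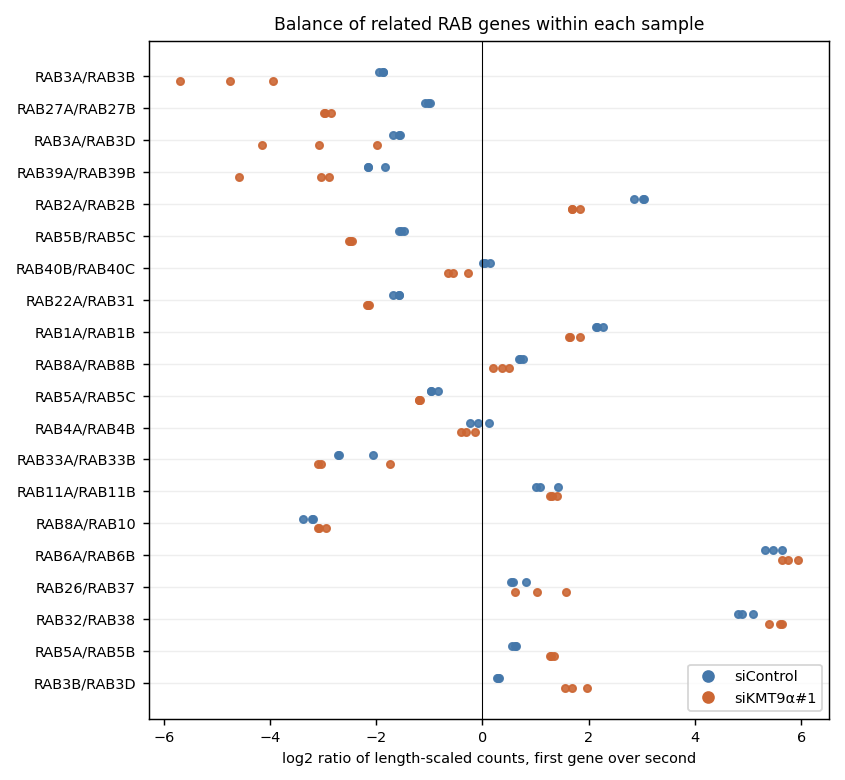
Log2 ratio of the length-scaled counts of related RAB genes (horizontal axis; first gene over second) for the 20 pairs compared, 1 point per sample. RAB27A over RAB27B lies at ratios of 0.471 to 0.503 in the siControl samples and 0.127 to 0.139 in the siKMT9α#1 samples, and 16 of the 20 pairs do not overlap.

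Level and direction went together among the RAB genes. The 30 RAB genes at 10 or more CPM per kilobase had 16 higher and 12 lower, with a median of 0.13 on the log2 scale, while the 25 scarcer ones had 5 higher and 16 lower, with a median of -0.75. Over all genes the medians were 0.00 for the 6168 at or above that level and -0.03 for the 7709 below it. Across the 55 genes, Spearman's rho between the log2 fold change and the level was 0.46, beside 0.07 over all genes. It was 0.23 for transcript length, beside 0.20 over all genes, and 0.01 for GC content. These are descriptions across genes that share libraries and depth.

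The genes that run the Rab cycle were read from lists of 137 genes, of which 130 were tested, 43 were higher, 59 were lower and 28 were not called. Their 78.5% is near the 75.6% of all genes, with a median of -0.08 on the log2 scale. The split was 30 higher and 67 lower with the library size alone, and 31 higher and 67 lower with GC and length offsets. The list for prenylation, membrane delivery and recycling of Rab proteins had 2 higher, 6 lower and 2 not called, with a median of -0.28. YIF1A, for a protein of ER-to-Golgi transport, had 118, 122 and 113 CPM in the siControl samples and 30.1, 27.6 and 29.7 CPM in the siKMT9α#1 samples. This was a log2 fold change of -2.01 (standard error 0.06, edgeR adjusted p = 2.59e-16), with all siKMT9α#1 samples far under the controls. RABAC1, which encodes the prenylated Rab acceptor PRA1, had 182, 196 and 191 CPM in the siControl samples and 57.7, 57.8 and 51.9 CPM in the siKMT9α#1 samples, again with no overlap and a log2 fold change of -1.77 (standard error 0.05, edgeR adjusted p = 1e-15). YIPF5, for another Golgi protein of this group, fell by 1.23 on the log2 scale. RABGGTB and RABGGTA, for the beta and alpha subunits of the enzyme that prenylates Rab proteins, went in opposite directions. RABGGTB rose by a small amount, at 0.24. RABGGTA fell more, with a log2 fold change of -0.87 (standard error 0.11, edgeR adjusted p = 7.28e-07).

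Among 39 GEF genes 11 were higher, 20 lower and 8 not called, with a median of -0.14. HPS4, for a subunit of the exchange factor of RAB32 and RAB38, had 7.75, 6.76 and 7.90 CPM in the siControl samples and 21.5, 21.4 and 20.6 CPM in the siKMT9α#1 samples. It was the largest rise of the list, with a log2 fold change of 1.49 (standard error 0.09, edgeR adjusted p = 1.5e-11). RIN3, for a RAB5 family exchange factor, and TRAPPC10, for a subunit of the TRAPPII complex, followed at 0.80 and 0.79. DENND1C, DENND2C and DENND1A, for exchange factors with a DENN domain, were the lowest, the first at -1.39 and the next at -1.31. DENND1A went from 23.6 ± 1.42 to 11.8 ± 0.474 CPM (SD, n = 3). The subunits of the RAB18 exchange factor, RAB3GAP1 and RAB3GAP2, are counted in the GAP list, not here, and were named after their values were seen. They had log2 fold changes of 0.20 and 0.34, which GC and length offsets brought to 0.01 and 0.09.

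Of 35 GAP genes 12 were higher, 15 lower and 8 not called, with a median of -0.10. SGSM1, for a small G protein signalling modulator with a TBC domain, had 4.49, 4.54 and 4.55 CPM in the siControl samples and 0.718, 0.621 and 0.418 CPM in the siKMT9α#1 samples. Its log2 fold change of -2.99 (standard error 0.22, edgeR adjusted p = 3.68e-10) was the largest in the 4 lists. TBC1D7 and EVI5 also fell, at -1.07 and -0.90. TBC1D5, for a retromer-linked GAP of RAB7A, RABGAP1 and SGSM2 rose, at 0.90, 0.84 and 0.83. The 46 effector genes were balanced, with 18 higher, 18 lower and 10 not called and a median near 0. RAB11FIP5, for a RAB11 effector of recycling, EXOC6, for an exocyst subunit, and RILP, for the RAB7A effector that recruits dynein, fell at -1.34, -1.14 and -1.05. RILPL2, for a relative of RILP, the kinase gene LRRK1 and RAB11FIP3, for another RAB11 effector, rose at 1.14, 1.06 and 0.86. Effectors of the same Rab thus went in opposite directions.

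**Figure D5:**
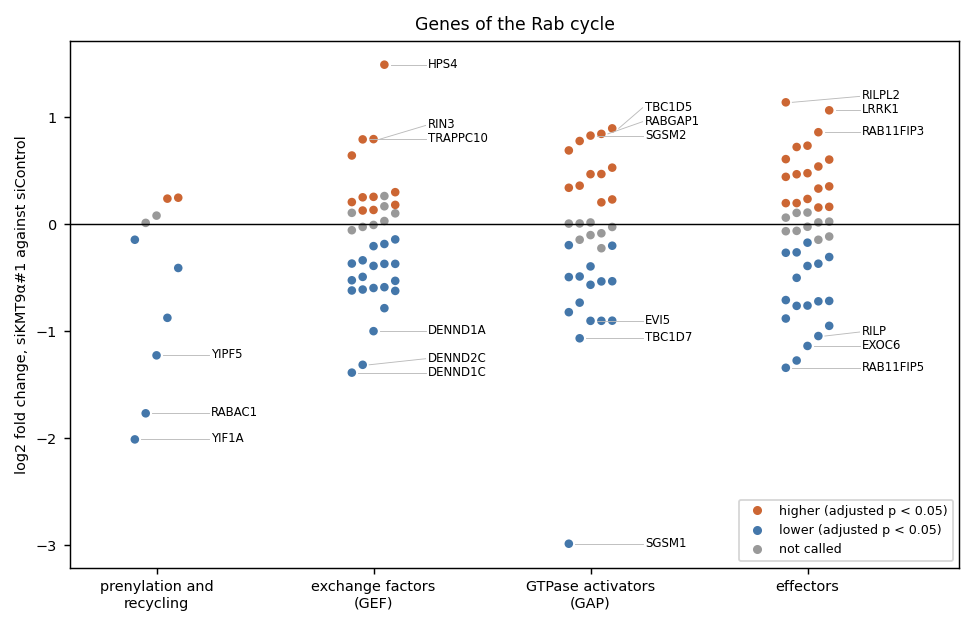
Log2 fold change with siKMT9α#1 against siControl (vertical axis) of the 130 tested genes of the Rab cycle in 4 lists, 1 point per gene, with genes chosen by rule named where they lie more than 0.5 from 0. SGSM1 lies lowest at -2.99 and HPS4 highest at 1.49, and the effector list has 18 genes called in each direction.

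The deposited spans of RAB4B, RAB43, RAB11B, RAB1A, RAB5A, RAB3D, RAB15, RAB30, RAB4A and RAB6C overlap those of other listed symbols, and whether reads were counted by strand is not given in the sources used here, so their counts may include reads of those neighbours. With 3 samples per group, p-values measure the spread between these samples.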

How the data were processed

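RNA-Seq of 3 siControl and 3 siKMT9α#1 samples of A549 cells was analysed. The authors used STAR for alignment to hg19 and HOMER for counting, and the deposited values are estimated counts per RefSeq transcript, not normalized, in steps of 0.5. Columns deposited from the authors' own edgeR comparison hold a fold change as a ratio, with a raw and an adjusted p-value, and were not used. Of 38767 deposited rows, the 1182 without a symbol and counts were left out.

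The transcript with the most counts over the 6 samples stood for its symbol. Counts were rounded and tested with edgeR 4.0.16 in R 4.3.3 (TMM, filterByExpr, quasi-likelihood F test, two-sided), with Benjamini-Hochberg adjustment over 13877 genes at a threshold of 0.05. CPM values use the TMM library sizes. Intervals cover counting error only. Ratios of related genes were compared with a two-sided exact permutation test over samples. On simulated data with these means and depths, 192 of 198 genes changed by 1 on the log2 scale were recovered. Of all 13737 genes tested there, 12 unchanged ones were called. Few genes were changed in the simulation, whereas 75.6% of genes were called in the data. It therefore does not cover scaling with so many changes, or calls on smaller changes.

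Step lists, pairs and the lists of Rab cycle genes, as well as the choice of the RAB genes, were made with earlier results of these data known. RAB genes given sample by sample were the 8 largest positive and 8 largest negative changes whose groups did not overlap, at a mean level of 1 CPM or more, the 6 highest per kilobase and the pairs with non-overlapping ratios, and from each Rab cycle list up to 3 in each direction, not all of which are reported here. RAB2A, RAB27A, RAB40A, RAB3A, RAB5B, RAB11A, RAB9A, RAB3GAP1, RAB3GAP2 and RABGGTA were shown in addition, after their values were seen. 3′ UTRs came from a GRCh37 annotation, in which all 60 RAB genes matched and 59 had a 3′ end within 50 bases of the listed one. The alternatives were DESeq2 1.42.0, the likelihood-ratio test, scaling by RLE factors or by library size alone, a minimum of 10 counts in every sample or no filter, the longest transcript, doubled counts, the replicate number as a block, GC and length offsets with and without it, and each sample left out. Seed medians under each alternative were added after seeing the data.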

Additional observations from a re-analysis of the deposited data

How the results depend on the processing

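Of 49 RAB genes called, 37 (12 higher and 25 lower) were called in the same direction under each of the 17 alternatives that gave a value, and 12 (9 higher and 3 lower) were not. With the library size alone 13 RAB genes were higher, not 21, and 31 were lower, not 28. Leaving out 1 sample gave 15 to 19 higher and 26 to 28 lower, and for the genes of the Rab cycle 40 to 44 higher and 54 to 58 lower. The medians of the RAB genes with and without a seed match, recomputed after seeing the data, ran from -0.96 to -0.78 and from -0.26 to 0.04. RAB35 and RAB38 each lost their call under 10 alternatives and RAB1B and RAB22A under 9, and RAB22A turned to -0.17 with GC and length offsets and to -0.16 with the offsets and the replicate block. The threshold of p under 1e-08 depended most on the setting. Its 6 higher RAB genes became 10 with no filter, 10 in the likelihood-ratio test and 11 with GC and length offsets and the block. Its 6 lower RAB genes became 12 with the library size alone, 16 with no filter, 12 in DESeq2, 16 in the likelihood-ratio test, 12 with GC and length offsets and 14 with the offsets and the block. The cause was not tested. Without 1 sample these counts were 4 to 7 higher and 4 to 9 lower. Samples that share a replicate number did not deviate together (correlations of -0.08, 0.02 and -0.08). The labels do not say whether such samples were prepared together, and these correlations cannot settle it. With the replicate block, 17 RAB genes were higher and 28 lower, and 3 passed p under 1e-08 as lower, while paired differences of the gene ratios have the same means as the unpaired ones. The scarce genes RAB9B, RAB3A, RAB33A, RAB39A and RAB40A rest on few counts, which limits how well their changes are known.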
